A study of Mus musculus with 3 samples.

Results

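Pdgfb and 9 genes by which pericytes are recognised (Pdgfrb, Rgs5, Cspg4, Anpep, Vtn, Zic1, Higd1b, Ndufa4l2 and Cd248) were followed in isolated mouse brain vessels. They are 10 of the 29917 genes that could be named, and were taken by symbol, each with the transcript that held the most counts over all libraries. PolyA+ RNA from vessels of 3-month-old male mice was sequenced in 3 libraries, each from the pooled vessels of 3 mice and each the only 1 of its group. C57BL6 WT and C57BL6-BALB/c WT mice carry an intact Cx30 gene, and Cx30-/- mice lack it in every cell of the body, so the deletion is not limited to astrocytes. The labels give the Cx30-/- mice a C57BL6 background, whereas the study's methods give C57BL6/Balbc. The study asked whether the loss of Cx30, an astroglial connexin, alters gene expression in brain vessels. With no replicates, no difference could be set against a spread between samples and no test between groups was possible. Levels are counts divided by a size factor of the library (normalized counts), and each ratio carries an exact binomial 95% interval that covers the counting of reads only.

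Pericytes lie on the capillary wall within the basement membrane that they share with the endothelium. Endothelial cells secrete PDGF-B, which heparan sulfate retains near the vessel and which activates its receptor PDGFR-beta on pericytes, a signal needed to recruit and keep them. In the brain, pericytes take part in forming the blood-brain barrier. Not all of these genes are exclusive to pericytes, since Cspg4 (NG2) also marks oligodendrocyte precursors, and Zic1 and Cd248 are also used by meningeal fibroblasts. Rgs5 and Zic1 are genes of mural cells, which include smooth muscle cells. The study names smooth muscle cells beside endothelial cells and pericytes in such vessels, and their part in the levels of these genes was not tested.

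The deposited counts summed to between 50375426 and 60725557 per library. Gjb6, the gene of Cx30, stood at 100.7 normalized counts in Cx30-/- vessels, against 2531.4 and 2425.9 in the WT libraries. It was thus far lower where the label gives the deletion, but not absent. The 96 raw counts left in Cx30-/- vessels covered 1401 of the 1759 bases of its transcript, and their source was not tested. All 10 genes lay well above the count minimum of 50, from 408 raw counts of Higd1b in C57BL6-BALB/c WT to 39176 of Rgs5 in C57BL6 WT, and reads covered at least 92.3% of the bases of each of their transcripts.

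Promoters are shown for 3 genes that differ in how they behaved below. Per length, Rgs5 was the highest of the 10 genes in Cx30-/- vessels and Anpep the lowest in every library, while Zic1 was level in the WT libraries. RefSeq gave a window for 5 of the 10 genes, and the sequences are the 250 bases before the RefSeq start, which for these 3 genes is also the start of the transcript counted here, cut for Zic1 where an exon of its other transcript begins. On GRCm38.p6 they lie at chr1:169655251-169655500 (Rgs5, plus strand), chr7:79848211-79848460 (Anpep, minus strand) and chr9:91365811-91366018 (Zic1, minus strand). The Anpep window lies within the annotated span of the gene, outside its exons, because another Anpep transcript starts further upstream, at 79861059. Capitals mark matches, on either strand, to any of 5 short motifs that are spelled out after the sequences.
Rgs5 promoter: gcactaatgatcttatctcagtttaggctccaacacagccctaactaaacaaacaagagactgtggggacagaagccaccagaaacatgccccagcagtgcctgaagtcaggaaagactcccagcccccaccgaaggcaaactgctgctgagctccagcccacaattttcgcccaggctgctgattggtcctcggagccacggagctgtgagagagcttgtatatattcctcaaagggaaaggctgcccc
Anpep promoter: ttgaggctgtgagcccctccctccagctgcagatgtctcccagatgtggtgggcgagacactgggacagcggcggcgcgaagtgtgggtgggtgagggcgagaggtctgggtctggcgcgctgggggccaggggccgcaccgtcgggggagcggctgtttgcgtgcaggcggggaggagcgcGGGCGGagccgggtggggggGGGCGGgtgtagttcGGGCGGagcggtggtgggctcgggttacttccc
Zic1 promoter: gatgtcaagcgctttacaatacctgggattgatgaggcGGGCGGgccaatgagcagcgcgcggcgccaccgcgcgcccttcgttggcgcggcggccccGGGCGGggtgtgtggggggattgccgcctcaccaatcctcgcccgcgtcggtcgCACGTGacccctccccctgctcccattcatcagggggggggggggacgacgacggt
The GC box, GGGCGG, was in 3 of the 5 promoters, found 3 times in that of Anpep and 2 times each in those of Zic1 and Cspg4. It is common, being in 32.7% of 32817 promoter windows of the same length. The core of the hypoxia response element, ACGTG, was in the Zic1 promoter as CACGTG, which reads the same on both strands and so holds 2 overlapping matches. Of all windows, 16.6% hold ACGTG. The forkhead motif, TGTTTAC, was in 0 of the 5 promoters and is in 3.16% of all. The TATA box, TATAAA, and the core bound by the Notch effector RBPJ, TGGGAA, were in that of Vtn alone among the 5 and are in 12.4% and 21.6% of all. None (0) of these 5 motifs was in the Rgs5 window. A match describes letters in a window and shows no binding.

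Levels can be set between genes per kilobase of transcript. Vtn, encoding the matrix protein vitronectin, and Rgs5, a regulator of G-protein signaling, stood far above the others. In C57BL6 WT vessels Vtn reached 10133 normalized counts per kb and Rgs5 8352, where the next gene, Pdgfb, reached 1547. In C57BL6-BALB/c WT vessels the same 3 genes stood at 5908, 5210 and 1118 normalized counts per kb. In Cx30-/- vessels the order at the top was reversed, with Rgs5 at 9776 and Vtn at 9221 normalized counts per kb. Anpep, the membrane aminopeptidase CD13, was the lowest, between 172 and 269 normalized counts per kb. Neighbours in the order whose counting intervals overlapped were Ndufa4l2 and Higd1b in both WT libraries, Cspg4 and Cd248 in C57BL6-BALB/c WT, and Higd1b, Pdgfrb and Ndufa4l2, each with the next, in Cx30-/- vessels.

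**Figure D1:**
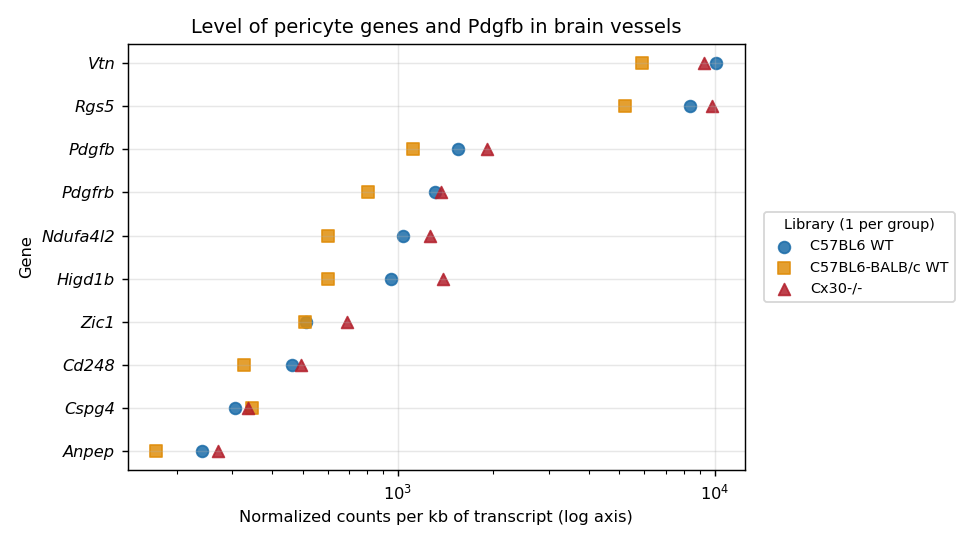
Normalized counts per kb of transcript (log axis) of the 10 genes in each library, 1 point per library, ordered by the level in C57BL6 WT. Vtn and Rgs5 stand apart from the rest at 5210 or more, and the C57BL6-BALB/c WT square lies leftmost for every gene except Cspg4, by a hair for Zic1.

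The ligand Pdgfb (ENSMUSG00000000489; chromosome 15 of GRCm38, 79995874 to 80014977, minus strand) was at 5577.8 normalized counts in Cx30-/- vessels, 4514.5 in C57BL6 WT and 3263.0 in C57BL6-BALB/c WT. The Cx30-/- library was thus the highest and C57BL6-BALB/c WT the lowest. The log2 ratio of Cx30-/- to C57BL6 WT was 0.31 (0.25 to 0.36), and that to C57BL6-BALB/c WT was 0.77 (0.71 to 0.84). In bulk vessels, fewer cells of a type and less RNA per cell cannot be told apart, for Pdgfb and for all genes that follow. Relative to Pecam1, an endothelial adhesion molecule, Pdgfb stood at 0.397 in Cx30-/- vessels, 0.355 in C57BL6 WT and 0.414 in C57BL6-BALB/c WT. By this ratio within a library, which needs no scaling between libraries, the Cx30-/- value lay between those of the WT libraries.

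The receptor Pdgfrb (ENSMUSG00000024620; chromosome 18, 61045150 to 61085061, plus strand) was at 7391.6 normalized counts in Cx30-/- vessels, 7063.4 in C57BL6 WT and 4352.9 in C57BL6-BALB/c WT. Cx30-/- and C57BL6 WT vessels were close, and C57BL6-BALB/c WT was the low library. The log2 ratio was 0.07 (0.02 to 0.11) to C57BL6 WT and 0.76 (0.71 to 0.82) to C57BL6-BALB/c WT, and between the WT libraries it was -0.70 (-0.75 to -0.64). Per kb, the receptor stood at 0.72 of its ligand Pdgfb in Cx30-/- vessels, 0.84 in C57BL6 WT and 0.72 in C57BL6-BALB/c WT.

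Rgs5 (ENSMUSG00000026678; chromosome 1, 169655501 to 169695813, plus strand) restrains signals from G-protein coupled receptors in mural cells. It was at 40043.3 normalized counts in Cx30-/- vessels, 34209 in C57BL6 WT and 21342 in C57BL6-BALB/c WT. Its order over the libraries was that of Pdgfb, with log2 ratios of 0.23 (0.21 to 0.25) to C57BL6 WT and 0.91 (0.88 to 0.93) to C57BL6-BALB/c WT. A shorter Rgs5 transcript of 726 bases, with 495 to 851 raw counts, gave 0.53 (0.38 to 0.67) and 0.74 (0.58 to 0.90).

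Vtn (ENSMUSG00000017344; chromosome 11, 78499091 to 78502324, plus strand) was at 16082 normalized counts in Cx30-/- vessels, 17671.2 in C57BL6 WT and 10303.2 in C57BL6-BALB/c WT. It was the only 1 of the 10 genes lower in Cx30-/- than in C57BL6 WT vessels, where 50.7% of all genes were lower. The log2 ratio was -0.14 (-0.17 to -0.11) to C57BL6 WT and 0.64 (0.61 to 0.68) to C57BL6-BALB/c WT. The 3 other Vtn transcripts, annotated as retaining an intron, had ratios to C57BL6 WT of -0.22 to -0.09. They overlap the coding transcript, so their reads are largely shared with it.

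Higd1b and Ndufa4l2 are enriched in brain pericytes and related to mitochondrial proteins of the respiratory chain. Higd1b (ENSMUSG00000020928; chromosome 11, 102835849 to 102838040, plus strand) was at 1019.7 normalized counts in Cx30-/- vessels, 698.6 in C57BL6 WT and 440.7 in C57BL6-BALB/c WT. Its log2 ratios were the largest of the 10 genes, 0.55 (0.41 to 0.68) to C57BL6 WT and 1.21 (1.04 to 1.38) to C57BL6-BALB/c WT, or 1.46-fold and 2.31-fold. The 2 other Higd1b transcripts gave 0.55 and 0.61, and 1.18 and 1.20. A read in several transcripts counts in each, so these are not separate measurements. Ndufa4l2 (ENSMUSG00000040280; chromosome 10, 127514967 to 127517154, plus strand) was at 1160.2 normalized counts in Cx30-/- vessels, 955.3 in C57BL6 WT and 554.1 in C57BL6-BALB/c WT. The order was again that of Pdgfb, with log2 ratios of 0.28 (0.16 to 0.40) and 1.07 (0.91 to 1.22). The interval of the latter reached below 1, so its passing 2-fold was within counting error. Ndufa4l2 shares 32 of 934 exon bases with Shmt2 on the other strand, and the libraries kept no strand.

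The paralogs Higd1a and Ndufa4 serve mitochondria in many cell types. Higd1a was at 56.6 normalized counts in Cx30-/- vessels, 77.7 in C57BL6 WT and 68.0 in C57BL6-BALB/c WT, and the intervals of both log2 ratios, -0.46 (-0.97 to 0.05) and -0.26 (-0.82 to 0.28), included 0. Ndufa4 was at 544.5, 560.6 and 340.2 normalized counts in the same libraries, with log2 ratios of -0.04 (-0.21 to 0.13) and 0.68 (0.47 to 0.88). It was low in the same library as Ndufa4l2. Per kb, Higd1b stood at 12.2 times Higd1a in Cx30-/- vessels, 6.09 times in C57BL6 WT and 4.39 times in C57BL6-BALB/c WT. These multiples are imprecise, because they divide by the low counts of Higd1a, at most 77.7 normalized counts, and no interval was computed for them.

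Anpep, Cd248 and Cspg4 encode proteins of the pericyte surface. Anpep (ENSMUSG00000039062; chromosome 7, 79821803 to 79861059, minus strand) was at 1022.8 normalized counts in Cx30-/- vessels, 916.0 in C57BL6 WT and 653.5 in C57BL6-BALB/c WT, with log2 ratios of 0.16 (0.03 to 0.29) and 0.65 (0.50 to 0.80). Cd248, encoding endosialin (ENSMUSG00000056481; chromosome 19, 5068078 to 5070682, plus strand), was at 1268.3, 1182.3 and 838.2 normalized counts in the same order of libraries. Its ratio to C57BL6 WT could not be told from 0 within counting error, at 0.10 (-0.01 to 0.21), and that to C57BL6-BALB/c WT was 0.60 (0.47 to 0.73).

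Cspg4 (ENSMUSG00000032911; chromosome 9, 56865033 to 56899870, plus strand) departed from the rest, at 2431.7 normalized counts in Cx30-/- vessels, 2221.5 in C57BL6 WT and 2504.8 in C57BL6-BALB/c WT. Its values lay close together, with log2 ratios of 0.13 (0.05 to 0.21) and -0.04 (-0.13 to 0.04). It was the only 1 of the 10 genes higher in C57BL6-BALB/c WT than in C57BL6 WT, by 0.17 (0.09 to 0.25), and the only 1 lower in Cx30-/- than in C57BL6-BALB/c WT vessels, where 49.7% of all genes were lower. Relative to Pdgfrb, Cspg4 stood at 0.329 in Cx30-/- vessels, 0.315 in C57BL6 WT and 0.575 in C57BL6-BALB/c WT. Oligodendrocyte precursors also carry NG2, and 5 of 5 of their listed genes, none at 0 in any library, summed to 3113 normalized counts in Cx30-/- vessels, 4531 in C57BL6 WT and 3789 in C57BL6-BALB/c WT. Pdgfra, which fibroblasts also use, made up 1654.4, 1677.4 and 1350.1 of these sums in the same order. The study also names smooth muscle cells in such vessels, and their listed genes summed to 58529, 44957 and 63480 in the same order. These sums were lowest in C57BL6 WT and highest in C57BL6-BALB/c WT, as Cspg4 was. The part of either cell type in the Cspg4 values was not tested.

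**Figure D2:**
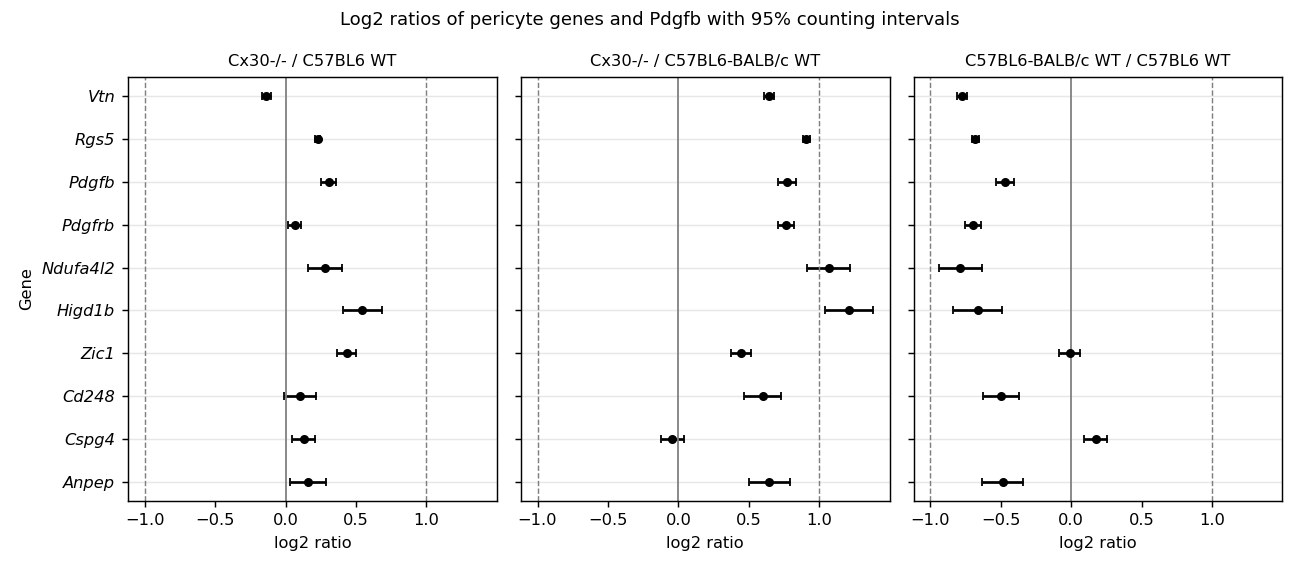
Log2 ratios of normalized counts of the 10 genes in the 3 comparisons of libraries, with bars for the exact 95% counting interval and dashed lines at 2-fold. In the left panel all points lie between -0.14 and 0.55, in the middle panel Higd1b and Ndufa4l2 pass the right dashed line, and in the right panel all but Zic1 and Cspg4 have intervals below 0.

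Zic1 (ENSMUSG00000032368; chromosome 9, 91358058 to 91365810, minus strand) encodes a zinc finger transcription factor of brain mural cells and of several neural lineages. It was at 3871.0 normalized counts in Cx30-/- vessels, 2867.6 in C57BL6 WT and 2845.0 in C57BL6-BALB/c WT. The WT libraries were level, at a log2 ratio of -0.01 (-0.09 to 0.06), and the Cx30-/- library stood above both, by 0.43 (0.36 to 0.50) and 0.44 (0.37 to 0.52). The shorter Zic1 transcript gave 0.50 and 0.48, which is not a separate measurement, since a read in both transcripts counts in each.

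Zic2, Zic4 and Zic5, which encode related factors, were also highest in Cx30-/- vessels. Zic2 was at 2749.6 normalized counts there, 1831.1 in C57BL6 WT and 1526.2 in C57BL6-BALB/c WT, with log2 ratios of 0.59 (0.50 to 0.67) and 0.85 (0.76 to 0.94). Zic4 and Zic5 had log2 ratios of 0.57 and 0.78 to C57BL6 WT, and of 0.57 and 0.88 to C57BL6-BALB/c WT. Summed, the 4 genes, Zic1 included, reached 8084 normalized counts in Cx30-/- vessels, 5655 in C57BL6 WT and 5316 in C57BL6-BALB/c WT. When libraries were scaled to endothelial genes instead, these 4 were still higher than in C57BL6 WT, by 0.23 to 0.58, whereas against C57BL6-BALB/c WT all 4 turned lower, from -0.49 for Zic1 to -0.05 for Zic5. Zic1 and Zic4 lie on opposite strands with their starts 3397 bases apart and share 60 of the 5606 exon bases of Zic1, in which reads cannot be assigned. Fibroblasts also use Zic genes, and their 6 of 6 listed genes summed to 10978 normalized counts in Cx30-/- vessels, 8992 in C57BL6 WT and 7767 in C57BL6-BALB/c WT. Cerebellar granule neurons do as well, and their 4 of 4 listed genes summed to 356, 481 and 480 in the same order. None of these genes was at 0, and the part of either cell type in the Zic values was not tested.

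Pdgfd, another ligand of PDGFR-beta, had the same order as Pdgfb, at 1313.4 normalized counts in Cx30-/- vessels, 1105.5 in C57BL6 WT and 731.2 in C57BL6-BALB/c WT. Its log2 ratios were 0.25 (0.13 to 0.36) and 0.84 (0.71 to 0.98). Pdgfa, a ligand of PDGFR-alpha, was at 1473.9, 1274.0 and 1472.2 normalized counts, so that Cx30-/- and C57BL6-BALB/c WT vessels were level. Pdgfc was at 251.8, 256.7 and 298.1, and the intervals of its log2 ratios, -0.03 (-0.28 to 0.22) and -0.24 (-0.50 to 0.01), included 0. Pdgfra, the receptor of fibroblasts and oligodendrocyte precursors, had log2 ratios of -0.02 (-0.12 to 0.08) and 0.29 (0.19 to 0.40). The receptor-like gene Pdgfrl, with at most 121.4 normalized counts, had -0.13 (-0.50 to 0.25) and 0.19 (-0.23 to 0.62).

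**Figure D3:**
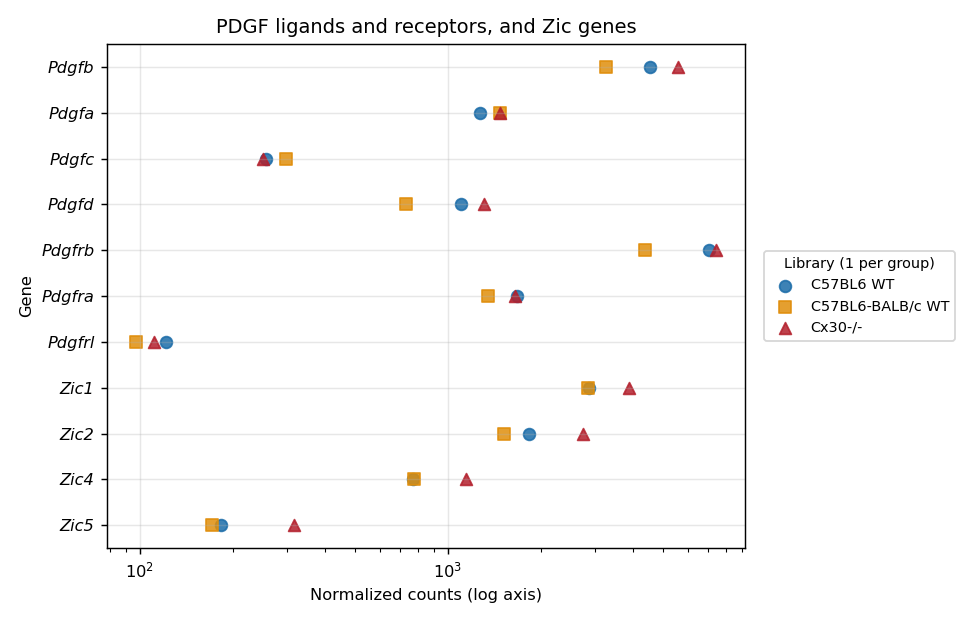
Normalized counts (log axis) of the 7 PDGF ligand and receptor genes and of Zic1, Zic2, Zic4 and Zic5 in each library, 1 point per library. The Cx30-/- triangle is rightmost for Pdgfb, Pdgfd, Pdgfrb and these Zic genes, and level with the C57BL6-BALB/c WT square for Pdgfa.

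Of 15 genes that relay the signal of PDGF receptors, none (0) differed 2-fold in either comparison of Cx30-/- vessels, where 2.68% of 14776 genes did against C57BL6 WT and 8.69% of 14891 against C57BL6-BALB/c WT. Their median log2 ratios were 0.17 and 0.18, beside -0.005 and 0.004 for all genes. Scaled to endothelial genes instead, these medians became -0.03 and -0.75, beside -0.21 and -0.94 for all genes. Nck2, an adaptor, was the highest against C57BL6 WT at 0.50, and Gab1, a docking protein, against C57BL6-BALB/c WT at 0.73. Src, a kinase recruited by the receptor, was the lowest in both, at -0.23 and -0.52. Of 5 listed genes for the retention of PDGF-B and the processing of PDGFs, 4 were analysed here. The pro-protein convertase Furin was the highest against C57BL6 WT at 0.14, and Ext1, which builds heparan sulfate, the lowest against C57BL6-BALB/c WT at -0.46. Plat, encoding tissue plasminogen activator, was the lowest against C57BL6 WT at -0.28 and the highest against C57BL6-BALB/c WT at 0.93.

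Counts over the 10 genes were read against all genes. Against C57BL6 WT, 0 of 10 differed 2-fold, where 2.68% of genes did. The interval lay above 0 for 8 of 10 (25.7% of genes) and below 0 for Vtn alone (28.3% of genes), and the median log2 ratio was 0.19. Against C57BL6-BALB/c WT, 2 of 10 were at least 2-fold higher (3.96% of genes), 8 of 10 at least 1.5-fold higher (14.1% of genes) and 9 of 10 had an interval above 0 (35.6% of genes), with a median of 0.71. Between the WT libraries, 0 of 10 differed 2-fold (3.43% of 14791 genes). In C57BL6-BALB/c WT, 5 of 10, Pdgfrb, Rgs5, Vtn, Higd1b and Ndufa4l2, were at least 1.5-fold lower (8.04% of genes), with a median of -0.58. The interval lay below 0 for 8 of 10 (31.2% of genes) and above 0 for Cspg4 (33.2% of genes). These comparisons share libraries, so a low level in C57BL6-BALB/c WT enters 2 of them.

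A wider list of 22 pericyte genes was examined in the same way. Against C57BL6 WT, 16 were higher (49.3% of genes) and 6 lower (50.7% of genes), with a median log2 ratio of 0.19. Among those with at least 50 normalized counts in every library, Angpt1, encoding a ligand of the endothelial receptor Tie2, was the highest at 0.73 and the phospholipase Pla1a the lowest at -0.50. Kcnj8 and Abcc9, which form the KATP channel of pericytes and are named here after their values were seen, were lower as Vtn was, at -0.43 (-0.56 to -0.30) and -0.16 (-0.26 to -0.06). Against C57BL6-BALB/c WT, 22 of 22 were higher (50.3% of genes), with a median of 0.53, and by the same rule the highest was Cox4i2, a subunit of cytochrome c oxidase, at 1.24. Ifitm1, named outside that rule after its values were seen, was above these in both comparisons, at 1.01 (0.48 to 1.55) and 1.32 (0.71 to 1.95), from 82 raw counts in Cx30-/- vessels, 49 in C57BL6 WT and 32 in C57BL6-BALB/c WT. Scaled to endothelial genes, 11 of 22 and 3 of 22 were higher instead.

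Endothelial genes were ordered over the libraries as most of the pericyte genes were. Their 10 of 10 listed genes, none at 0, summed to 156435 normalized counts in Cx30-/- vessels, 134707 in C57BL6 WT and 86024 in C57BL6-BALB/c WT. The median log2 ratio was 0.22 to C57BL6 WT, from Kdr at 0.07 to Ly6c1 at 0.32, and 0.86 to C57BL6-BALB/c WT, from Slc2a1 at 0.65 to Emcn at 1.36. Measured from these medians, Pdgfb was at 0.08 and -0.08, Pdgfrb at -0.16 and -0.09, and Rgs5 at 0.01 and 0.05. Higd1b, at 0.32 and 0.35, and Ndufa4l2, at 0.06 and 0.21, were above both medians. Vtn, at -0.36 and -0.21, Cd248, at -0.12 and -0.26, Anpep, at -0.06 and -0.21, and Cspg4, at -0.09 and -0.90, were below both, and Zic1 was at 0.21 and -0.41. The mean log2 level of the 9 pericyte genes less that of the endothelial genes in the same library was -1.47 in Cx30-/- vessels, -1.47 in C57BL6 WT and -1.24 in C57BL6-BALB/c WT. A different share of capillaries in a library and a change within its pericytes cannot be told apart.

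Smooth muscle genes, of the other mural cell, had another order. Their 7 of 7 listed genes, none at 0, summed to 58529 normalized counts in Cx30-/- vessels, 44957 in C57BL6 WT and 63480 in C57BL6-BALB/c WT. The library with the lowest level of most pericyte genes was thus the highest here. The mean log2 level of the 9 pericyte genes less that of the smooth muscle genes was -0.51 in Cx30-/- vessels, -0.37 in C57BL6 WT and -1.38 in C57BL6-BALB/c WT. Since some of the 9 are not exclusive to pericytes, this difference does not separate the cell types. The median log2 ratio of the smooth muscle list was 0.35 to C57BL6 WT, from Cnn1 at 0.14 to Myh11 at 0.60, and -0.14 to C57BL6-BALB/c WT, from Cnn1 at -0.75 to Pln at 0.17.

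**Figure D4:**
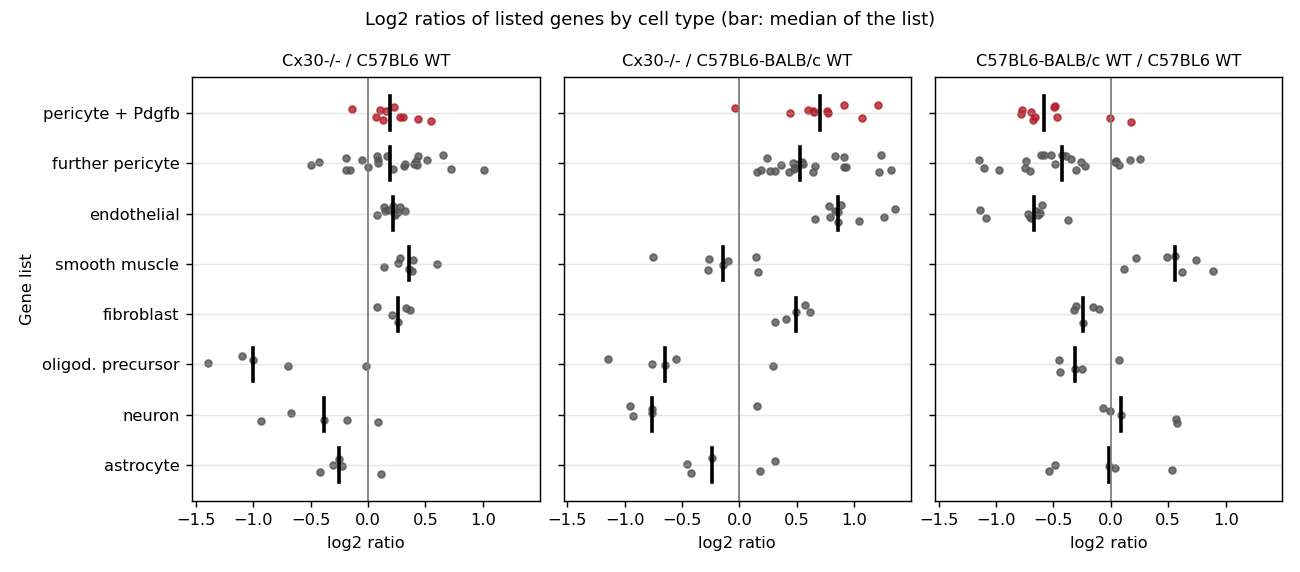
Log2 ratios of the genes of 8 lists in the 3 comparisons of libraries, 1 point per gene with at least 50 normalized counts in a compared library, with a bar at the median of each list. From left to right the pericyte genes with Pdgfb have medians of 0.19, 0.71 and -0.58, the endothelial genes 0.22, 0.86 and -0.67, and the smooth muscle genes 0.35, -0.14 and 0.56.

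Other cells that may come with vessels were followed by short lists, whose medians are given to C57BL6 WT and then to C57BL6-BALB/c WT. Fibroblast genes, of which 5 of 6 passed the count minimum, were at 0.26 and 0.49, with Col1a2 the highest in both and Lum and then Dcn the lowest. Oligodendrocyte precursor genes were at -1.0 and -0.65, from Olig2 at -1.40 and -1.14 to Pdgfra. Only 2 of 4 granule neuron genes, Cbln1 and Neurod1, passed the count minimum. Their medians, each the midpoint of these 2, were -0.52 and -0.52, with Cbln1 below Neurod1. Neuron genes were at -0.38 and -0.76, with Stmn2 the highest and Syt1 and then Rbfox3 the lowest. Astrocyte genes were at -0.26 and -0.24, with Slc1a2 the lowest and Aqp4 and then Aldh1l1 the highest. Oligodendrocyte genes were at -0.65 and -0.59, from Mag to Mbp. Microglial genes were at -0.22 and 0.10, from Cx3cr1 to Aif1 and from Aif1 to Csf1r, and choroid plexus genes at -0.65 and 0.46, from Ttr and then Clic6 to Folr1.

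Paralogs of Rgs5, Cd248, Cspg4 and Anpep were listed as well. Rgs4 was at 6744.3 normalized counts in Cx30-/- vessels, 5630.5 in C57BL6 WT and 8084.7 in C57BL6-BALB/c WT, and so was highest where Rgs5 was lowest. Per kb, Rgs5 stood at 4.26 times Rgs4 in Cx30-/- vessels, 4.36 times in C57BL6 WT and 1.90 times in C57BL6-BALB/c WT. Rgs2 had log2 ratios of -0.35 and -1.56, and Rgs16 0.19 and 0.75. Among relatives of Cd248 on the endothelium, Clec14a had 0.55 and 1.30, Cd93 0.19 and 0.78, and Thbd 0.14 and 0.19. Cspg5, a proteoglycan of neural cells, had -0.70 and -0.48, and Lnpep, an aminopeptidase like Anpep, 0.54 and 0.12.

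Genes with a pattern like that of the receptor and its ligand were sought by the distance between their 2 log2 ratios of Cx30-/- to WT, over 8588 genes with a mean of at least 500 normalized counts. Nearest to Pdgfrb were Kdr, the endothelial VEGF receptor, at 0.016, the ribosomal gene Rps3 at 0.020 and Cd34 at 0.029. Nearest to Pdgfb were the kinase Ripk1 at 0.011 and the transcription factors Fli1 at 0.011 and Klf4 at 0.016. Of the 8588 genes, 63 lay within 0.1 of Pdgfrb and 110 within 0.1 of Pdgfb, so over 3 libraries such likeness was not particular to the genes named.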

How the data were processed

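PolyA+ RNA of isolated brain vessels was sequenced in 3 libraries. Per the study's methods, the authors trimmed and filtered the reads with Eoulsan, aligned them with Bowtie and discarded those with several matches. They deposited raw counts per Ensembl transcript (82813 transcripts), together with the count as a fraction of a library total, the transcript length and the number of bases without a read. The submitters' processing notes name CASAVA 1.8.2, Bowtie and mm10. A read in several transcripts of a gene counts in each. GENCODE M21 named 83.8% of the transcripts by identifier, and only 1.57% of these had the same start there, so printed positions are those of GENCODE M21 (GRCm38) and not of the files. No columns of the authors' comparisons were used.

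Groups followed the sample labels. Libraries were scaled by the median of ratios to the geometric mean, the kind of normalization the study used, which gave size factors of 1.145 for C57BL6 WT, 0.926 for C57BL6-BALB/c WT and 0.953 for Cx30-/-. A gene entered a comparison with at least 50 normalized counts in either library, and was called at a ratio of at least 2. No pseudocount was added. Exact binomial intervals were computed with scipy 1.17.1. They cover counting error only, since PCR copies are not separate molecules. The computation was tested on simulated counts. Alternatives were TMM factors (edgeR 4.0.16, R 4.3.3), upper quartile, total count, size factors of the compared pair, the sum of transcripts or the longest one, a pseudocount of 1 and a ratio of 1.5.

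Besides the 10 genes, the genes named are all PDGF ligands and receptors, all listed paralogs, the highest and lowest gene of each other list in each comparison of Cx30-/- with a WT library among those with at least 50 normalized counts in every library, the 3 genes nearest in pattern to Pdgfrb and to Pdgfb, and Gjb6. The genes and lists were chosen with earlier results of these data known. Ndst1 is not analysed here, and some listed genes are not reported here.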

Additional observations from a re-analysis of the deposited data

How the results depend on the processing

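Each group had 1 library, so none could be left out. No paired analysis was possible because each group has 1 library and the labels give no replicate numbers. Of 210 ratios of the 10 genes under the other scalings, transcript choices and the pseudocount, 198 moved by less than the counting error and 12 by more. The sign changed in 2, both near 0, for Cspg4 against C57BL6-BALB/c WT with total counts (0.04) and for Zic1 between the WT libraries with the upper quartile (0.005). With a threshold of 1.5-fold in place of 2-fold, 8 genes rather than 2 passed against C57BL6-BALB/c WT, and 5 rather than 0 between the WT libraries. Scaling to the endothelial list, chosen after seeing the data, moved the median of all genes by -0.21 against C57BL6 WT, -0.95 against C57BL6-BALB/c WT and 0.73 between the WT libraries. The median log2 ratio of the 10 genes then became -0.014, -0.23 and 0.14, and 0 genes passed 2-fold against C57BL6-BALB/c WT. The members of this scaling list are set near no difference by construction. Under it, Pdgfrb turned to -0.14 and -0.17 and Pdgfb to 0.10 and -0.16 against C57BL6 WT and C57BL6-BALB/c WT. The counts of Higd1b and Ndufa4l2 in C57BL6-BALB/c WT, 408 and 513, limit the precision of their ratios.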
